A study of Mus musculus with 107 samples.

Results

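Livers with high and with low expression of 3 PPAR alpha target genes were compared within a single population of mice. The mice were F2 females descended from C57BL/6J and DBA/2J, inbred strains, and all of them were on an atherogenic diet, so neither an untreated group nor another diet stands beside them. Arrays of 2 channels set each liver's total RNA against 1 shared pool, described as holding an equal amount of RNA from every sample. The labels speak of 111 mice, 107 arrays were given here, and 104 of these held measured values. The mice were chosen by the measured log ratios of Cyp4a10, Cyp4a14 and Acot1: each was scored by the mean z-score of these genes, and the 26 of highest score (the high group) were set against the 26 of lowest score (the low group), which left 52 mice in the middle. The groups were thus made from measured expression and not from a treatment or a genotype, and no mouse carries a label that says why it scored high or low. A ratio to a pool gives no absolute level, so the presence of liver markers could not be checked. The labels do not state whether littermates were among the mice.

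PPAR alpha is a nuclear receptor that is abundant in hepatocytes and is activated by fatty acids and by fibrate drugs. It pairs with the retinoid X receptor, binds direct repeats in DNA and raises the transcription of genes that take up, activate and oxidise fatty acids in mitochondria, in peroxisomes and at the microsomal omega hydroxylases. In rodents its activation also enlarges the peroxisome compartment, and during fasting it raises ketone body synthesis and the hormone FGF21. Cyp4a10 and Cyp4a14 encode omega hydroxylases and Acot1 a cytosolic acyl-CoA thioesterase, and all of them are textbook targets of the receptor.

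Values are log2 ratios of a mouse to the pool, turned from the deposited values, which were read as log10 because they stop at exactly -2 and 2. A difference is the high group's mean minus the low group's. Which channel was the numerator is not given in the sources used here, and mouse over pool was taken as the likely direction from the wording of the sample titles. Of 5356 pairs of arrays, 7 correlated below -0.3 over all probes, and of the 1326 pairs within both groups 5 did so, each of them a high with a low mouse. Turning the sign of every array makes the low group the high one and leaves every difference given here as it is, while each group's position against the pool changes sign.

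The 3 genes that define the score had 1 probe each and are described without a test. In the high group Cyp4a10 ran from 0.09 to 1.49 log2 with a median of 0.78, and in the low group from -5.84 to -0.82 with a median of -1.82. Cyp4a14 ran from 0.17 to 1.48 (median 1.001) in the high and from -5.34 to -0.40 (median -1.90) in the low group. Acot1 ran from 0.20 to 1.92 (median 0.74) against -3.59 to -0.80 (median -2.16). The group means lay 8.15-fold apart for Cyp4a10, 11.1-fold for Cyp4a14 and 7.78-fold for Acot1. Over the 104 mice Cyp4a10 correlated with Cyp4a14 at r = 0.959 (rho 0.927) and with Acot1 at r = 0.888 (rho 0.891), and Cyp4a14 with Acot1 at r = 0.867 (rho 0.857). Cyp4a and Acot genes have close relatives and probe sequences were not used here, so hybridisation of relatives to these probes cannot be told apart from the named gene.

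Scores were unevenly spread. The high group spanned 0.727 to 1.40 and the low group -3.23 to -0.391, so that the low group was 2.84 score units wide and the high group 0.675. The mice just outside the groups scored 0.710 and -0.384, close to the neighbours inside. Within the low group a gap separated 14 mice at -1.23 or lower from 12 mice at -0.755 or higher. A wider break, from -1.65 to -2.35, lay among those 14 mice, whose Cyp4a10 ran from -5.84 to -1.82 log2. The 14 mice were thus not uniform. In what follows the gap means the break between -0.755 and -1.23, and no split was made at the wider one.

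**Figure D1:**
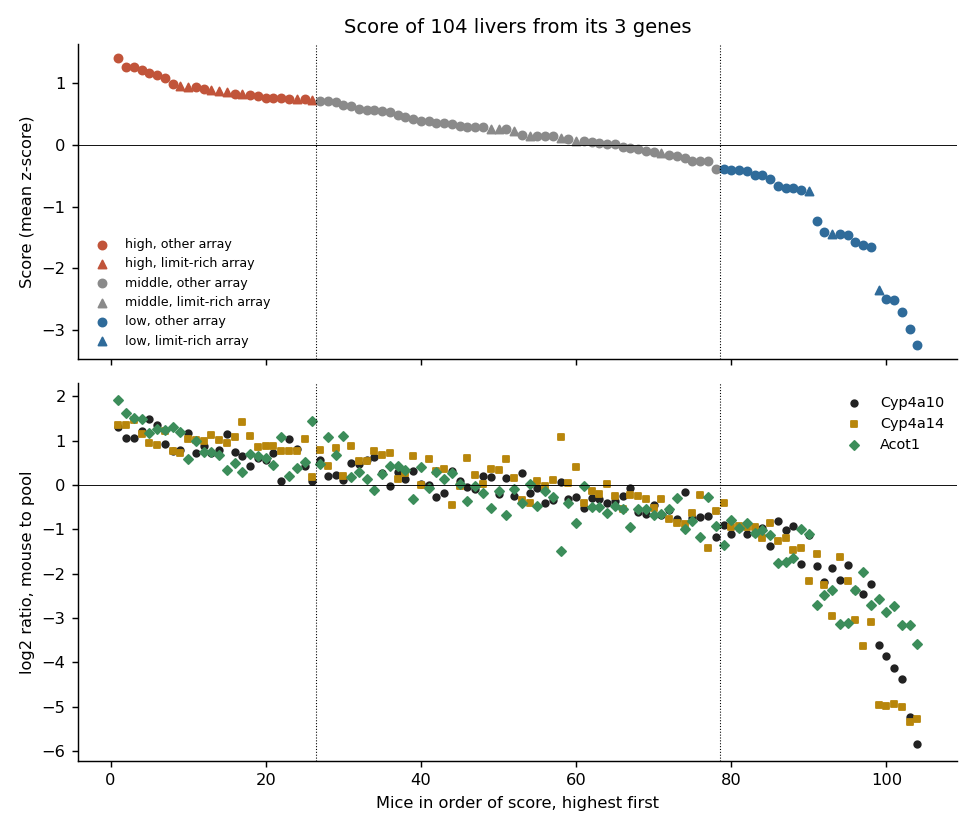
The upper panel plots the score (mean z-score, no unit) and the lower panel the log2 ratio to the pool of Cyp4a10, Cyp4a14 and Acot1 for 104 mice in order of score, 1 point a mouse and gene. Dotted lines bound the 26 highest and 26 lowest mice, and triangles in the upper panel mark limit-rich arrays. The curve is flat at the high end (0.727 to 1.40) and falls steeply at the low end, to -3.23.

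Among 12312 genes outside the score, 2875 were higher in the high group (23.4%) and 2338 lower (19.0%) at an adjusted p under 0.05, the threshold for a call throughout (limma with Benjamini-Hochberg adjustment over all 12312 genes). At 1.5-fold or more, 520 were higher (4.22%) and 869 lower (7.06%). The median difference over all genes was 0.03 log2. With 42.3% of all genes called, a call by itself sets no gene apart, and the sizes below are to be read against that background. The same arrays gave the score and the other genes, each mouse had 1 array, and noise shared by the probes of an array was not separated from differences between mice.

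Limit-rich arrays, those with over 700 values at the ends of the scale, numbered 8 of 26 in the high and 3 of 26 in the low group (Fisher's exact test, two-sided, p = 0.173, adjusted p = 0.216 over 5 measures). The SD over probes averaged 0.54 log2 in the high and 0.57 in the low group (permutation test, two-sided, p = 0.653). Without the limit-rich arrays (18 against 23 mice) 2263 genes were higher and 1961 lower, and among limit-rich arrays alone (8 against 3 mice) 1352 and 1363. Of 6 mice with the most pancreas or muscle RNA, 3 lay in the high group and 0 in the low group.

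Transcripts of mitochondrial fatty acid oxidation genes were higher in the high group along almost the whole course of the pathway. Of 14 measured genes 13 were called higher and none lower, with a median difference of 0.98 log2 against 0.03 over all genes. Cpt2, the inner-membrane carnitine palmitoyltransferase, ran from 0.09 to 0.83 (median 0.40) in the high group and from -3.06 to -0.01 (median -0.72) in the low group. Every high mouse thus lay above every low mouse, and the means differed 2.53-fold (1.34 log2, SE 0.15, limma adjusted p = 3.96e-10). Cpt2 was 1 of 3 genes whose groups did not overlap at all, which is 0.0244% of the genes tested. The others were Hsd17b4 and Calm3, 1 of the genes for calmodulin and lower in the high group (-0.38 log2, SE 0.05).

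Decr1, the mitochondrial dienoyl-CoA reductase for unsaturated fatty acids, had the largest difference in means of the pathway, although its groups overlapped. It ran from 0.29 to 1.40 (median 0.83) in the high and from -2.77 to 0.42 (median -0.89) in the low group, and 23 of 26 low mice lay below the lowest high mouse. Its difference was 3.10-fold (1.63 log2, SE 0.18, limma adjusted p = 5.46e-10). Acadm, the medium-chain acyl-CoA dehydrogenase, differed 2.23-fold (1.15 log2, SE 0.12). Cpt1a, the outer-membrane transferase that controls entry of fatty acids into mitochondria, differed less, by 1.76-fold (0.82 log2, SE 0.11), and 19 of 26 low mice lay below the lowest high mouse. The exception was Hadh, the short-chain hydroxyacyl-CoA dehydrogenase, at 0.08 log2 and not called. Bdh1, which makes hydroxybutyrate from acetoacetate, was the only measured gene of ketone body synthesis and was 2.13-fold higher (1.09 log2, SE 0.21).

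Peroxisomal oxidation showed the same direction, with 11 of 13 measured genes higher, none lower and a median of 0.84 log2. Ehhadh, the bifunctional enzyme of the peroxisomal pathway, ran from -0.24 to 1.98 (median 0.63) in the high and from -3.74 to -0.10 (median -1.02) in the low group. In 25 of 26 low mice it lay below the lowest high mouse, and the difference was 3.68-fold (1.88 log2, SE 0.19, limma adjusted p = 3.74e-11). Hsd17b4, the second bifunctional enzyme, ran from -0.02 to 0.82 against -2.71 to -0.04 and did not overlap between the groups (1.92-fold, 0.94 log2, SE 0.12). Catalase (Cat, 0.12 log2) and the carrier gene Scp2 (0.06 log2) were not called. All 12 measured peroxin and peroxisome membrane genes were called higher, with a median of 0.61 log2. Without the limit-rich arrays 11 of 12 were, Pex26 (0.16 log2, limma adjusted p = 0.100) being lost. Among them Pex11a, which promotes peroxisome division, differed most, 2.61-fold (1.38 log2, SE 0.19), and Pex26 least (0.18 log2).

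**Figure D2:**
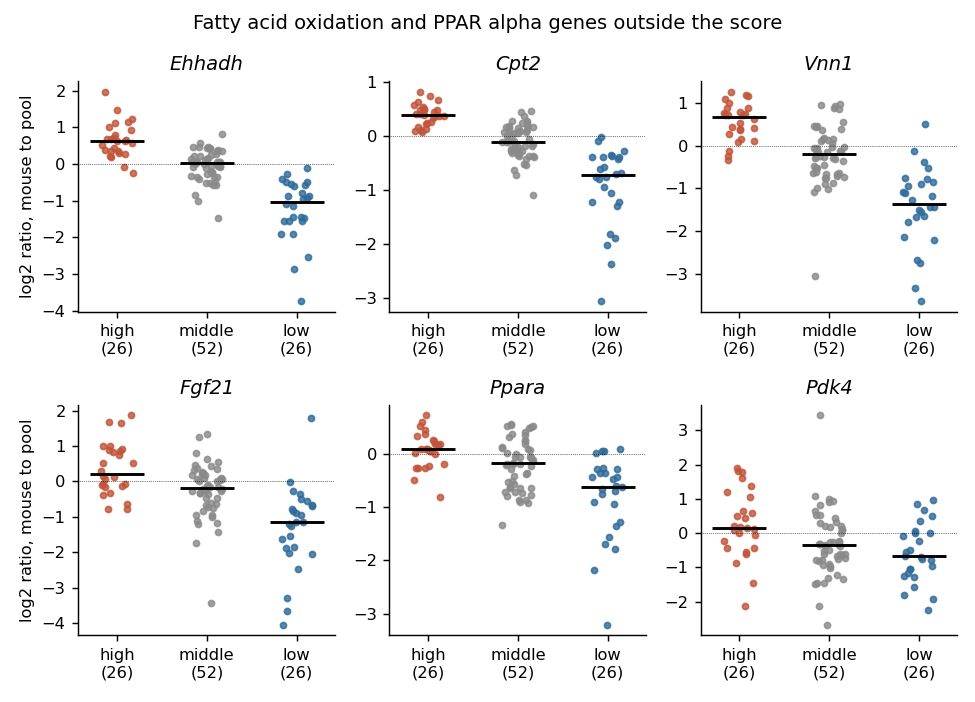
Each panel plots 1 gene's log2 ratio of mouse to pool, 1 point a mouse, for the high (26), middle (52) and low (26) mice, with bars at the medians and horizontal scatter without meaning. The groups of Cpt2 do not overlap, those of Ehhadh and Vnn1 barely do, and those of Pdk4 overlap over most of their range (medians 0.16 and -0.68).

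Genes of the neighbouring steps were split. Of 8 measured Cyp4 and fatty aldehyde genes outside the score, 6 were higher and 1, Cyp4f16 (-0.19 log2), lower. Aldh3a2, which oxidises fatty aldehydes, was 2.53-fold higher (1.34 log2, SE 0.17) and the omega hydroxylase Cyp4f14 1.86-fold (0.89 log2, SE 0.24). Of 6 other acyl-CoA thioesterases 4 were higher, led by Acot12 (1.12 log2, SE 0.14). Acot9, a mitochondrial thioesterase, went the other way: it ran from -1.08 to 0.12 (median -0.45) in the high and from -0.60 to 2.07 (median 0.36) in the low group, and 18 low mice lay above every high mouse (-0.87 log2, SE 0.13, limma adjusted p = 6.33e-07).

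The same split appeared among the acyl-CoA synthetases and the fatty acid binding proteins. Of 10 synthetase genes 6 were higher and 2 lower. Slc27a2, a very-long-chain acyl-CoA synthetase, was 2.30-fold higher (1.204 log2, SE 0.16), whereas Acsl4, which prefers arachidonate, was 1.52-fold lower (-0.60 log2, SE 0.11) and Acss1, a mitochondrial acetyl-CoA synthetase, 3.71-fold lower (-1.89 log2, SE 0.27). Of 11 genes of uptake and binding 4 were higher and 3 lower. Fabp2, the intestinal type of fatty acid binding protein, was 2.23-fold higher (1.16 log2, SE 0.20), and the lipoprotein receptor Vldlr 2.39-fold (1.26 log2, SE 0.19).

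Fabp4 and Fabp5, fatty acid binding proteins of adipocytes, macrophages and epithelia, were lower in the high group. Fabp4 ran from -1.91 to 0.02 (median -0.83) in the high and from -1.2004 to 2.40 (median 0.81) in the low group, with 20 low mice above every high mouse (-1.59 log2, SE 0.20). Fabp5, measured in 23 of the 26 high mice, was 5.55-fold lower (-2.47 log2, SE 0.31, limma adjusted p = 8.91e-09). Lpl, the lipoprotein lipase that adult hepatocytes express little, was 2.90-fold lower (-1.54 log2, SE 0.19). Cd36, a fatty acid transporter and PPAR target, ran from -1.49 to 0.70 and from -1.29 to 0.52, and its difference of 0.27 log2 (SE 0.15) was not called (limma adjusted p = 0.146). Without the limit-rich arrays it was called at 0.42 log2 (limma adjusted p = 0.0282).

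Lipid droplet genes numbered 13, with 6 higher and 3 lower. G0s2, the inhibitor of adipose triglyceride lipase, ran from -1.09 to 2.60 (median 0.40) in the high and from -3.80 to 0.79 (median -1.66) in the low group, a 4.14-fold difference (2.05 log2, SE 0.28, limma adjusted p = 3.77e-08). The droplet coat gene Plin2 was 1.93-fold higher (0.95 log2, SE 0.14). Cidea, which fuses droplets, was 2.14-fold lower (-1.10 log2, SE 0.32, 22 high and 25 low mice measured).

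Of 19 other genes known as PPAR alpha targets 13 were higher and 2 lower, with a median of 0.75 log2. Leaving out the limit-rich arrays gave 10 higher and 1 lower, with a median of 0.69 log2. Vnn1, a pantetheinase, ran from -0.33 to 1.27 (median 0.66) in the high and from -3.64 to 0.52 (median -1.36) in the low group, and 24 of 26 low mice lay below the lowest high mouse (3.99-fold, 2.00 log2, SE 0.20, limma adjusted p = 4.11e-11). Retsat, retinol saturase, differed 4.02-fold (2.01 log2, SE 0.20). Fgf21, the fasting hormone of the liver, ran from -0.79 to 1.87 (median 0.22) in the high and from -4.05 to 1.79 (median -1.14) in the low group. It differed 3.19-fold (1.67 log2, SE 0.27, limma adjusted p = 1.62e-06) although 1 low mouse reached 1.79.

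Pdk4, the kinase that blocks pyruvate oxidation, overlapped widely between the groups (-2.14 to 1.91 against -2.24 to 0.98) with a difference of 0.85 log2 (SE 0.25, limma adjusted p = 0.00547). Angptl4, an inhibitor of lipoprotein lipase, was not called (0.49 log2, limma adjusted p = 0.116). The members of opposite sign were Lpin1, a phosphatidate phosphatase (-0.78 log2, limma adjusted p = 0.0485), and Hdc, histidine decarboxylase (-0.57 log2, limma adjusted p = 0.0118). Without the limit-rich arrays Hdc was not called (-0.49 log2, limma adjusted p = 0.0683).

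The receptor's own transcript was also higher in the high group. Ppara ran from -0.81 to 0.72 (median 0.09) in the high and from -3.21 to 0.09 (median -0.62) in the low group. The difference was 1.84-fold (0.88 log2, SE 0.16, limma adjusted p = 1.78e-05), and 9 of 26 low mice lay below the lowest high mouse. Of 15 measured partner and coregulator genes, Ppara included, 6 were higher and none lower, with a median of 0.14 log2. Over all genes 42.3% were called, so this count does not set the list apart. Some of its members had probes of opposite sign that were averaged, among them a retinoid X receptor gene (0.46 and -0.06 log2). Without the limit-rich arrays 6 were higher and 2 lower, and with arrays centred on their median 5 and 1. Pparg, the related receptor of adipocytes (0.14 log2, SE 0.07, limma adjusted p = 0.108), and the coactivator Ppargc1a (0.00 log2, SE 0.11, limma adjusted p = 0.999) were not called.

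The starts of these genes were searched for the kind of site that the receptor binds with its retinoid X partner. The motif was the hexamer AGGTCA in 2 direct copies with any 1 base between them, sought on both strands in the 250 bases before each start, with up to 2 mismatches in the 12 fixed letters. RefSeq promoters of assembly GRCm38.p6 were available for 62 of 83 listed oxidation, Cyp4, thioesterase and target genes, of which 9 held a match (14.5%). Of all 27025 genes with a promoter there, 1005 did (3.72%), and so did 4.34% of the genes called higher, 3.97% of those called lower and 3.80% of those tested. Promoters of Cyp4a10 and Cyp4a14 were not in the table, and the windows of Acot1 and Ehhadh held no such match, which says only that these letters do not occur there. Of the 48 listed genes that were measured and have a promoter, called or not, 7 held a match. Of the 35 listed genes that were called higher and have a promoter, 5 held a match: Acot12, Aldh9a1, Etfa, Ucp3 and Aqp7. A match is a likeness of letters and no measurement of binding.

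The windows of the 3 of these with the best match or the larger differences (1.12, 0.96 and 0.68 log2) show what such a match looks like, printed 5′ to 3′ on the gene's strand with the match in capitals.
Acot12 (chr13:91741271-91741520, plus strand, 1 mismatch): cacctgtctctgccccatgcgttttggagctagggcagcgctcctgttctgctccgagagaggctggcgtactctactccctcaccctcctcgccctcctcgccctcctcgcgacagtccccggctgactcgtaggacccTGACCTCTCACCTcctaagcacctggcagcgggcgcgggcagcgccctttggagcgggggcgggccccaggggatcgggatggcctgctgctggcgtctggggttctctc
Aldh9a1 (chr1:167349741-167349990, plus strand, 2 mismatches): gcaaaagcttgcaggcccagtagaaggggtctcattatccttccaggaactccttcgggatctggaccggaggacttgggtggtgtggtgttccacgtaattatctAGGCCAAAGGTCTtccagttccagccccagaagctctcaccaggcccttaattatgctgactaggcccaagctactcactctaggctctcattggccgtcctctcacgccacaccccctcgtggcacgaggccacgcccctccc
Etfa (chr9:55512244-55512493, minus strand, 2 mismatches): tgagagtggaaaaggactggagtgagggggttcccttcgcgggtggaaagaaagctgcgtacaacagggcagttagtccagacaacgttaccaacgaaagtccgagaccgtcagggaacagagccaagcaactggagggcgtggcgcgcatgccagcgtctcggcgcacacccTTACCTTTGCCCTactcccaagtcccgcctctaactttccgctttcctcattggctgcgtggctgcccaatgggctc
The Acot12 match lies 98 to 110 bases before the start and, like that of Etfa, on the strand opposite to the gene.

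Lists of other hepatocyte functions also held more genes higher than lower in the high group. Bile acid synthesis and transport had 12 of 14 genes higher and none lower (median 0.73 log2), among them the uptake transporters Slc10a1 (1.36 log2, SE 0.17) and Slco1b2 (1.39 log2, SE 0.27). Of 23 drug-metabolising P450 genes 15 were higher and 1, Cyp2c55 (-0.92 log2), lower, with a median of 0.69 log2. Without the limit-rich arrays Cyp2c55 was not called (-0.50 log2, limma adjusted p = 0.273). Cyp2e1, the ethanol-inducible P450, was 2.71-fold higher (1.44 log2, SE 0.26), and Cyp2f2 4.14-fold (2.05 log2, SE 0.33). The respiratory chain and ATP synthase had 21 of 24 genes higher and none lower with a median of 0.39 log2, and the tricarboxylic acid cycle 10 of 12 with a median of 0.31. When the limit-rich arrays were left out, 18 of 24 and 7 of 12 were higher, and 9 of the 14 bile acid genes. Over all 12312 genes 2263 were higher in that fit, against 2875 with every array.

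Of 16 measured genes of fatty acid synthesis and desaturation 10 were higher and none lower (median 0.44 log2). Elovl5, an elongase of polyunsaturated fatty acids, was 2.72-fold higher (1.44 log2, SE 0.15, limma adjusted p = 1.06e-10), and the desaturase Fads2 was higher by 1.08 log2 (1.12 and 1.03 in its probes). Fatty acid synthase itself (Fasn, -0.24 log2, limma adjusted p = 0.145) and the stearoyl-CoA desaturase Scd1 (-0.18 log2, limma adjusted p = 0.398) were not called. Of 10 genes of cholesterol synthesis 2 were higher and 3 lower, the largest being squalene epoxidase (Sqle, -0.80 log2), which was not called without the limit-rich arrays (-0.51 log2, limma adjusted p = 0.0584).

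Secreted and structural hepatocyte genes did not move as 1 group. Of 7 measured general hepatocyte genes 4 were higher, such as transthyretin (Ttr, 0.96 log2), while albumin (Alb, -0.15 log2, limma adjusted p = 0.481) was not called. Complement and coagulation had 14 of 26 genes higher and 1 lower (median 0.32 log2), and 10 higher and 1 lower without the limit-rich arrays. Without the 14 mice that scored below -1.2, 2 of these 26 were higher and 3 were lower, beside 1407 and 1496 of all 12312 genes. Female-biased liver genes had 8 of 10 higher (median 1.17 log2), among them Sult3a1. Male-biased liver genes had 3 of 6 higher and none lower (median 0.41 log2).

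The 12 largest positive differences outside the score reached from 2.00 to 2.94 log2. Besides G0s2, Cyp2f2, Retsat and Vnn1 they were the sulfotransferases Sult3a1 and Sult2a8, the peroxisomal oxidase Hao2, the carboxylesterase Ces3a, the carbonic anhydrase Car3, cathepsin E (Ctse), Paqr9 and Pdxdc1. Sult2a8 ran from -1.87 to 1.92 (median 0.45) in the high and from -5.13 to 0.53 (median -2.37) in the low group, a 7.01-fold difference (2.81 log2, SE 0.35, limma adjusted p = 7.08e-09). Sult3a1 ran from -5.97 to 3.79 (median -2.64) against -6.50 to 2.08 (median -5.57). Its low values lay near the end of the scale at -6.64, and its groups overlapped over most of their range despite a 7.69-fold difference in means (2.94 log2, SE 0.66, 26 and 25 mice). Pdxdc1 likewise covered most of the scale in both groups (-6.36 to 1.43 against -6.44 to 0.99, 24 and 26 mice measured), and without the limit-rich arrays its difference was not called (1.64 log2, limma adjusted p = 0.161).

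Marker lists of macrophages, neutrophils, stellate cells, bile ducts and proliferating cells were lower in the high group. Among single genes the 12 largest negative differences, from -3.03 to -2.34 log2, were Lcn2, Col1a1, Mmp7, Gpnmb, Gstm3, D17H6S56E-5, Lgals3, Ngp, Bex1, Fabp5, Emp1 and Col3a1. Lcn2, the iron-carrier-binding lipocalin of the acute phase, ran from -3.53 to -0.35 (median -2.48) in the high and from -2.31 to 2.73 (median 0.98) in the low group. In 23 of 26 low mice it lay above every high mouse, and it was 8.18-fold lower in the high group (-3.03 log2, SE 0.28, limma adjusted p = 6.28e-12). In bulk tissue, fewer cells of a type and less RNA per cell cannot be told apart.

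Matrix genes showed a like separation. Of 14 stellate cell and fibroblast genes 11 were lower in the high group and none higher, with a median of -1.19 log2. Col1a1, the main chain of type I collagen, ran from -4.35 to 0.17 (median -2.12) in the high and from -1.54 to 2.65 (median 0.85) in the low group, and 17 low mice lay above every high mouse (7.47-fold lower, -2.90 log2, SE 0.31, limma adjusted p = 1.55e-10). Col3a1 was 5.07-fold lower (-2.34 log2, SE 0.24). Desmin (Des, 0.04 log2), a stellate cell marker, and Lrat (0.02 log2), which marks quiescent stellate cells, were not called. Over the list's mean the high mice ranged from -1.73 to -0.02 and the low mice from -0.36 to 1.28, with 21 low mice above every high mouse.

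Of 15 macrophage and Kupffer cell genes 13 were lower in the high group and none higher (median -1.202 log2). Gpnmb, a glycoprotein of lipid-laden macrophages, was 7.14-fold lower: the high mice ran from -3.81 to -0.19 (median -2.66) and the low mice from -3.09 to 2.91 (median 1.23), with 21 low mice above every high mouse (-2.84 log2, SE 0.40, limma adjusted p = 8.76e-08). The lysosomal protease Ctss was 4.55-fold lower (-2.19 log2, SE 0.23), and the complement gene C1qb 2.30-fold (-1.202 log2, SE 0.13). Clec4f, which marks resident Kupffer cells, was not called (0.36 log2). Over the list's mean, high mice ranged from -1.60 to -0.09 and low mice from -0.87 to 1.26, with 23 of 26 low mice above every high mouse.

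**Figure D3:**
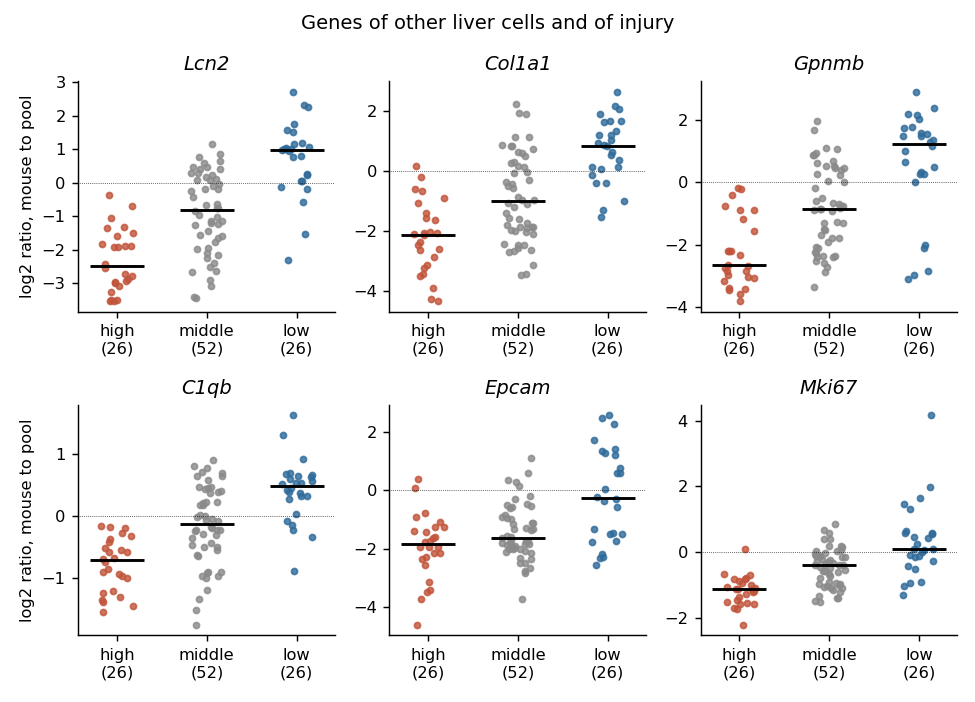
Each panel plots 1 gene's log2 ratio of mouse to pool, 1 point a mouse, for the high (26), middle (52) and low (26) mice, with bars at the medians and horizontal scatter without meaning. The high mice lie lowest for Lcn2, Col1a1, Gpnmb, C1qb and Mki67 (medians -2.48, -2.12, -2.66, -0.71 and -1.13), and for Epcam the high and middle mice lie side by side.

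Neutrophil, bile duct and cell cycle genes had the same sign. Of 8 neutrophil genes 7 were lower (median -1.24 log2), such as S100a8, a subunit of calprotectin (4.89-fold, -2.29 log2, SE 0.33), and the granule gene Ngp (6.28-fold, -2.65 log2, SE 0.44). Of 8 cholangiocyte genes 7 were lower (median -0.99 log2), such as Epcam (-1.77 log2, SE 0.38, limma adjusted p = 0.00014). Of 15 proliferation genes 14 were lower (median -0.71 log2), and Mki67 ran from -2.21 to 0.11 (median -1.13) in the high and from -1.31 to 4.16 (median 0.09) in the low group (2.82-fold lower, -1.498 log2, SE 0.23). Class II antigen presentation genes were lower in 5 of 6. These marker lists moved together with the fatty acid genes in the same mice, and their part in those differences was not tested.

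Not every cell type followed. None of 12 T and NK cell genes was called by limma (2 at an unadjusted p under 0.05), none of 7 B and plasma cell genes (1 at that level) and none of 4 erythroid genes (0 at that level). Of 7 endothelial genes 1 was higher and 1 lower. Pancreatic acinar genes had 2 of 7 higher and skeletal muscle genes 1 of 9, and the highest list means lay in the high group (3.81 and 2.77 log2, against -0.13 and -0.44 for the highest low mouse). Without the 3 high mice rich in such RNA, 4839 of the 5213 calls remained. Among limit-rich arrays alone and without them, the median was -2.15 and -0.98 log2 for the stellate list, -3.64 and -0.86 for the neutrophil list, and 0.90 and 1.04 for mitochondrial oxidation.

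**Figure D4:**
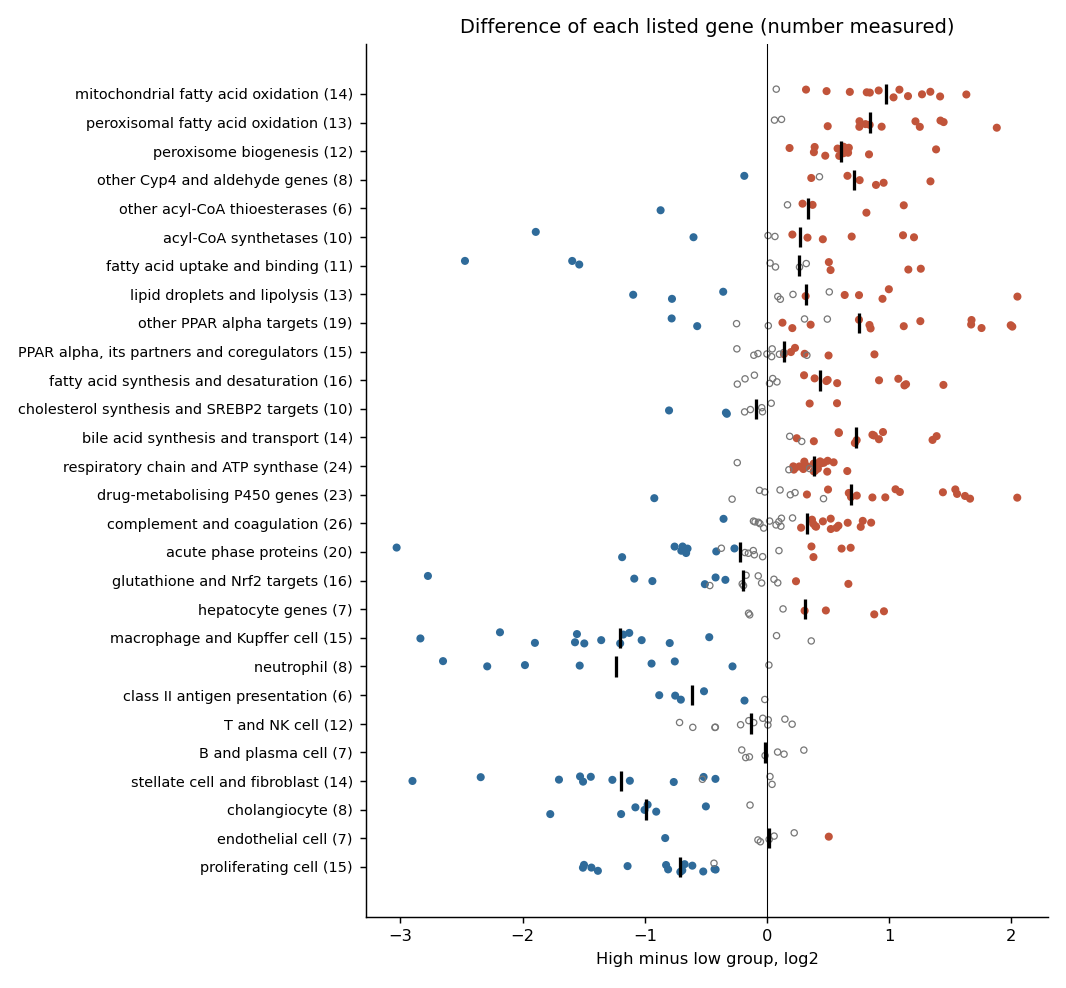
Each point is 1 gene's difference, high minus low group on the log2 scale (26 mice each), in rows of gene lists with the number measured. Filled points are called (red higher, blue lower), open points are not, and black ticks are medians. Of 47 lists 28 are drawn, with medians such as 0.98 for mitochondrial fatty acid oxidation and -1.24 for neutrophil genes.

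Stress and detoxification genes gave mixed signs. The acute phase list had 4 genes higher and 9 lower of 20, with Lcn2 the farthest and Itih4, an inhibitor chain secreted by hepatocytes, the highest (0.69 log2). Of 16 glutathione and Nrf2 target genes 2 were higher and 6 lower, and Gstm3, a glutathione transferase, was 6.85-fold lower (-2.78 log2, SE 0.32). Of 17 genes of the endoplasmic reticulum stress response 5 were lower and none higher, with the stress factor Atf3 farthest (-1.61 log2, SE 0.17), while 7 of 8 cytosolic chaperone genes were higher (median 0.36 log2). Of 13 clock genes 2 were called.

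The 52 middle mice, which neither group used, carried the same score over a narrower span. There each gene was regressed on the score, with slopes in log2 per score unit. At an adjusted p under 0.05, 890 genes rose with the score (7.23%) and 1044 fell (8.48%). Of these, 722 were also higher in the high group (81.1% of the middle list, 25.1% of the groups' list) and 976 also lower (93.5% and 41.7%), and 1 gene was called with opposite signs.

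Within the middle mice 8 of 14 mitochondrial and 8 of 13 peroxisomal oxidation genes rose and none fell. Ehhadh rose by 0.65 per unit (SE 0.18, limma adjusted p = 0.00975) and Cpt2 by 0.68 (SE 0.11, limma adjusted p = 6.25e-05). Fgf21 (0.34, SE 0.36) and Ppara (0.48, SE 0.22, limma adjusted p = 0.121) were not called there. Lcn2 fell by 2.68 per unit (SE 0.45) and Col1a1 fell by 3.18 (SE 0.54). The stellate list had 10 of 14 falling, macrophages 8 of 15, neutrophils 2 of 8 and cholangiocytes 3 of 8. Pdxdc1 had a slope of the other sign (-1.60, SE 1.19) that was not called.

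**Figure D5:**
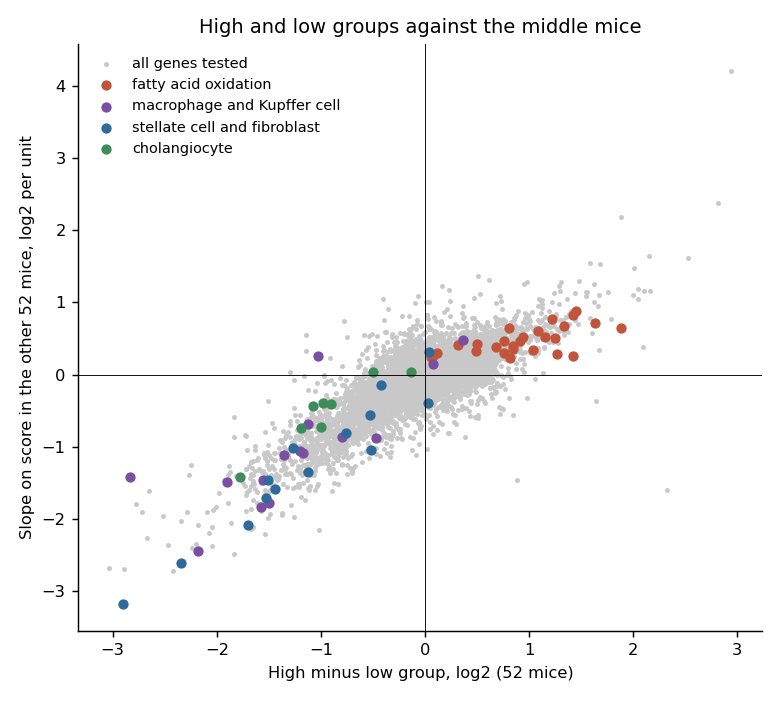
Each grey point is 1 of 12312 genes, with the difference between the groups (log2, 52 mice) on the x axis and the slope on the score in the other 52 mice (log2 per score unit) on the y axis. Coloured points are listed genes: fatty acid oxidation lies at the upper right, and macrophage and stellate cell genes mostly at the lower left.

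Slopes on the score were also fitted within each group, a step added after the gap in the low group had been seen. Within the 26 low mice 1234 genes rose (10.0%) and 947 fell (7.69%) with the score, and within the 26 high mice 104 rose (0.845%) and 109 fell (0.885%). In the low group 11 of 14 mitochondrial oxidation genes, 16 of 23 P450 genes and 17 of 26 complement and coagulation genes rose with the score. All 8 cholangiocyte genes fell there, as did 3 of 15 macrophage, 3 of 14 stellate and 0 of 15 proliferation genes.

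The split of the low group shows this in single genes. Cpt2 had a median of 0.40 in the high mice, -0.38 in the 12 low mice above the gap and -1.22 in the 14 below it. Cyp2e1 had medians of 0.09, -0.46 and -1.85, and the uptake transporter Slco1b2 0.21, -0.25 and -1.84. Col1a1, by contrast, had medians of -2.12, 0.51 and 1.02, and Lcn2 of -2.48, 0.62 and 1.02, so most of their distance lay between the high mice and the 12. Epcam had medians of -1.85, -1.03 and 0.97. Whether the genes differ in where along the score they change was not tested.

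Set against the 12 low mice above the gap alone, each list given here kept the sign of its median and most lost calls. Mitochondrial oxidation had 13 of 14 genes higher (median 0.64 log2), peroxisomal oxidation 10 of 13 (0.55), peroxisome biogenesis 9 of 12 (0.34) and the other PPAR alpha targets 12 of 19 with 2 lower (0.59). The Cyp4 and aldehyde list had 5 of 8 higher and none lower (0.30), the thioesterases 2 of 6 with 1 lower (0.18) and the synthetases 4 of 10 with 2 lower (0.14). Bile acid genes had 7 of 14 higher (0.36), P450 genes 10 of 23 with 1 lower (0.37), female-biased genes 4 of 10 (0.72 against 1.17) and fatty acid synthesis 7 of 16 with 1 lower (0.12 against 0.44). The tricarboxylic acid cycle had 6 of 12 higher, cytosolic chaperones 3 of 8, general hepatocyte genes 2 of 7, and the acute phase list none higher and 10 of 20 lower. Macrophage genes had 13 of 15 lower (-1.105), stellate genes 10 of 14 (-0.93), cholangiocyte genes 6 of 8 (-0.51), neutrophil genes 5 of 8 (-0.73) and proliferation genes 12 of 15 (-0.49).

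Over all 104 mice the genes most like the score were Ephx2, the soluble epoxide hydrolase of peroxisomes (r = 0.927, rho 0.921), Acadm (r = 0.911, rho 0.851), 2810030D12Rik (r = 0.910, rho 0.858), Ech1, a peroxisomal and mitochondrial dienoyl-CoA isomerase (r = 0.909, rho 0.841), and Cpt2 (r = 0.906, rho 0.908). They were picked for their r among 12312 genes, so these values are a description. All 5 were called in the groups and in the middle mice, with slopes from 0.52 to 0.88 log2 per unit in the latter.

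The counts depended on how much of the shared variation was taken to belong to the score. With the first principal component of the genes outside the score and the fatty acid lists as a covariate, 12 genes were higher and 21 lower. That component held 19.0% of those genes' variance and itself ran with the score over the 104 mice (r = 0.847, rho 0.811, a description). Under it 1 of 14 mitochondrial and 1 of 13 peroxisomal oxidation genes were called higher, and none of 12 peroxisome biogenesis genes, 15 macrophage genes or 14 stellate genes was called in either direction by limma, with 1, 11 and 6 of them at an unadjusted p below 0.05. Of the 5213 calls 23 remained with the same sign. Chosen after their values were seen, the genes still called included Pdk4 (1.81 log2), Hadhb (0.65) and Crat (0.50) on the higher side. On the lower side they included Gstm3 (-2.50) and Lcn2 (-1.73). Chosen in the same way, Fasn (-0.84) was lower and newly called, as the reported fit did not call it. Under that covariate Ppara (-0.16), Cyp2e1 (-0.58) and Epcam (0.38) had the other sign and were not called. Without the 14 mice below -1.2, 1407 genes were higher and 1496 lower, and 2648 of the 5213 calls remained. Of the genes named above, 12 were then no longer called: Sult3a1 (2.25 log2, limma adjusted p = 0.0906), Car3 (1.01, adjusted p = 0.157), Ttr (0.28, adjusted p = 0.197), Cyp4f14 (0.28, adjusted p = 0.272), Aqp7, Cidea, Cyp4f16, Itih4, Lpin1, Pex26, Sqle and Ucp3. Fasn became called, at -0.45 log2 (adjusted p = 0.0208).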

How the data were processed

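The authors deposited 1 value per probe and array, read as a log10 ratio (mouse over pool), with limits at -2 and 2 (100-fold), from which the base was inferred. For dyes, scanner processing and normalization, the record is: not given in the sources used here. No value other than 0 was held by 3 arrays, which were not used. Values at the limits (1.07% of all) were set missing beside 1.69% already missing. Probes needed a value on 90% of the 104 arrays (20633 of 23536 probes). Of all probes 14744 had 1 symbol in the platform annotation, 18 several and 8774 none, and 11972 gene symbols were updated through the RefSeq gene table. Probes of 1 symbol were averaged, which gave 12312 genes outside the score. Of 651 distinct symbols in 47 gene lists, 510 were measured.

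The number of arrays limits the precision. Spot signal against background was not examined. Differences and slopes were fitted with limma 3.58.1 (lmFit and eBayes) in R 4.3.3 on log2 values, with Benjamini-Hochberg adjustment at 0.05. The scripts that fit them were first tested on simulated data. Array measures had permutation tests (100000 resamples) or Fisher's exact test. The mice are separate samples by their labels, and no array was repeated.

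The members and lists were chosen with earlier results of these data known. The text names the 3 score genes, the 12 largest called differences of each sign, members of the fatty acid and PPAR alpha lists, up to 4 called members of each other list with the largest difference and any called of opposite sign, and the 5 genes most correlated with the score. Alb, C1qb, Calm3, Clec4f, Des, Fasn, Lrat and Scd1 fall outside that rule and were chosen after their values were seen.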

Additional observations from a re-analysis of the deposited data

How the results depend on the processing

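Over 23 alternatives no gene called in the comparison of the groups was called with the other sign, apart from 1 gene with the principal component as a covariate. Counts of higher and lower genes stayed within 1.5 times of 2875 and 2338 in 20 of them, from 2263 to 3530 and from 1961 to 3095. They moved in the other 3: to 1352 and 1363 among limit-rich arrays alone, where fewer mice were fitted, to 12 and 21 with the first principal component as a covariate, and to 1407 and 1496 without the low mice below -1.2, an alternative chosen after seeing the data. At 1.5-fold or more, the higher and lower counts were 6 and 17 with the component, 125 and 564 without those low mice, 170 and 517 for 52 against 52 mice and 45 and 154 with values read as natural logarithms. The higher count at 1.5-fold was 1033 for 13 against 13 mice, 238 with array weights and 289 with arrays scaled to the median SD. Except under the natural logarithm, whose smaller unit lowers every fold, the cause was not tested. Centring each array on its median made 45.5% of the calls higher, against 55.2% in the reported fit. With limit-rich arrays as a block 4889 of 5213 calls remained, and without them 3957.

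In the middle mice, rising and falling genes numbered 305 and 648 with Cyp4a10 alone as the score, 348 and 480 with Cyp4a14 alone, 88 and 178 with Acot1 alone, and 2200 and 1783 with array weights. Centring gave 549 rising. The cause was not tested. The array measures kept their side of the threshold without limit-rich arrays. The SD over probes then differed by -0.12 log2, high minus low, (permutation test, p = 0.0135, adjusted p = 0.0538).

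Of 90 named genes the following changed sign. With the principal component they were Acsl4 0.077, Bdh1 -0.30, Car3 -1.36, Cat -0.55, Ces3a -0.94, Cidea 0.54, Clec4f -0.68, Cyp2e1 -0.58, Cyp2f2 -0.29, Cyp4f14 -0.82, Des -0.067, Epcam 0.38, Etfa -0.0041, Fabp2 -0.15, Hadh -0.33, Hao2 -0.43, Hdc 0.0073, Itih4 -0.43, Lrat -0.31, Mmp7 0.85, Pex26 -0.039, Ppara -0.16, Pparg -0.11, Ppargc1a 0.12, Scp2 -0.33, Slco1b2 -0.51, Sqle 0.49, Ttr -0.63 and Ucp3 -0.11 log2. Among limit-rich arrays alone Alb was 0.0090, Pparg -0.047, Ppargc1a 0.085 and Scd1 0.0091. Without the low mice below -1.2, Alb was 0.18, Clec4f -0.16, Lrat -0.21, Ppargc1a 0.13 and Scd1 0.14. For 52 against 52 mice Alb was 0.0048 and Ppargc1a 0.023. Array weights gave Cat -0.021, Hadh -0.0051, Lrat -0.087 and Scp2 -0.040, and scaled arrays Cat -0.0033, Hadh -0.013, Lrat -0.017 and Scp2 -0.031. Quantile normalization gave Hadh -0.0016, Lrat -0.016 and Scp2 -0.022, and centring Des -0.00023 and Lrat -0.017. Des was -0.012 without mice with RNA of other tissues, and Fasn 1.1e-05 with the score as a number. Lrat was -0.0080 without limit-rich arrays, -0.014 with new groups without them, -0.030 with Cyp4a10 alone and -0.091 with Cyp4a14 alone, where Ppargc1a was 0.057. All of these but those under the principal component were genes that were not called in the reported fit.

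Without limit-rich arrays Aqp7, Cyp2c55, Hdc, Pdxdc1, Pex26, Sqle and Ucp3 were no longer called, and Cd36 was. No paired analysis was possible because the labels give 1 group of mice. With 1 array a mouse, noise and biological spread could not be separated, and values near the limits bound the range of Sult3a1 and Pdxdc1.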
